A study of Mus musculus with 378 samples.

Results

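Pancreatic islets make and secrete large amounts of protein, and proinsulin enters the endoplasmic reticulum (ER) before it reaches secretory granules. In the ER, chaperones of the HSP70 and HSP90 families hold nascent chains, lectins retain glycoproteins until they are folded, and oxidoreductases form and rearrange disulfide bonds. Chains that do not fold are returned to the cytosol and degraded, which is ER-associated degradation (ERAD). The sensors ATF6, IRE1 (gene Ern1) and PERK (gene Eif2ak3) respond to unfolded protein and raise the transcription of many of these genes, in part through the factor XBP1.

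The 32 genes described here were those whose symbol was on a list of ER chaperones, folding enzymes and ERAD components. All 32 were found among the 22180 genes of the count table and in the deposited variance-stabilised table, and all 32 were among the 16927 genes that passed the filter on low counts. They comprise 9 HSP70 and HSP90 chaperones and their partners (Hspa5, Hsp90b1, Hyou1, Dnajb9, Dnajb11, Dnajc3, Dnajc10, Sdf2l1, Manf), 6 genes of disulfide chemistry (P4hb, Pdia3, Pdia4, Pdia6, Creld2, Ero1l), 2 lectins of the calnexin cycle (Calr, Canx) and 10 ERAD genes (Edem1, Edem2, Edem3, Os9, Sel1l, Syvn1, Herpud1, Derl1, Derl2, Derl3). The other members are the 3 stress sensors Atf6, Ern1 and Eif2ak3, the transcription factor Xbp1 and the translocon subunit Sec61b.

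RNA was measured by poly(A) sequencing in islets of Diversity Outbred mice, a stock bred from several founder strains in which each animal carries its own mix of their genomes. Males gave 190 libraries and females 2 fewer, with 1 library per mouse, and every mouse was fed a diet high in fat and sugar (45% fat). The titles give the sex and a mouse number, and age is not stated. To follow drift along the numbers, the mice were placed in 4 bands of 100 consecutive numbers. A band is not a batch named in the labels, and within each band the numbers of the females come before those of the males, except for 1 female of band 2 whose number lies among the males, so sex and this order can hardly be told apart.

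Libraries held 15.1 to 68.8 M counts, with a median of 34.8 M. Beta cell markers summed to 80400 to 338000 CPM (counts scaled to a common library total), alpha cell markers to 2120 to 71600 and acinar markers, from the exocrine tissue around islets, to 122.7 to 93600. The libraries of band 4 were shallower (median 24 M counts) and stood apart for many genes, so the band was a term of every main model. Some alternatives left it out. Of the libraries labelled female, 2 had under 10 CPM of Xist, which is transcribed from an inactive X; without them the counts of members that differed by sex were the same. These are bulk libraries, so fewer cells of a type and less RNA per cell cannot be told apart.

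A sequence element that XBP1 and ATF6 are known to act through, the ER stress response element (ERSE), was looked for in the 250 bases upstream of the start that RefSeq gives each gene (build GRCm38.p6). The letters searched, on both strands, were CCAAT, then any 9 bases, then CCACG, and 28 of the 32 members had a promoter entry. It was found in 9 of these 28 (32.1%), against 37 of 32851 promoters in all (0.113%). Members were counted once per gene and the 32851 as promoter entries, of which a gene may have several, so the percentages differ in unit. The matches are shown because the members that hold them are compared with the others below; capitals mark the fixed letters, and each match is read on the strand that carries it.
Hspa5: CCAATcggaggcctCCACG
Hsp90b1, farther match: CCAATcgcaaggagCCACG
Hsp90b1, nearer match: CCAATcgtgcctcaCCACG
Pdia6: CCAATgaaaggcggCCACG
Creld2: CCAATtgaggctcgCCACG
Dnajc3: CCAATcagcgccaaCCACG
Calr: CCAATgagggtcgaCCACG
Canx: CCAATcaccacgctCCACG
Derl3: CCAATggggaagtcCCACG
Syvn1: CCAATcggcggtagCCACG

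The match lay 65 to 47 bases upstream of the RefSeq start in Hspa5 and 44 to 26 bases upstream in Syvn1, and Hsp90b1 held 2 copies. The related element ERSE-II (ATTGG, any 1 base, then CCACG) was found in 1 member, Herpud1, whose promoter also held the amino acid response element TGATGCAA, a sequence bound by ATF4. Across all promoters ERSE-II was in 0.0304% and TGATGCAA in 0.791%. The UPRE core TGACGTGG, present in 0.563% of all promoters, was in 0 of the 28. None of the matches overlapped another. A match is a description of the letters and not of binding, and a lack of a match says only that these letters are not in the window.

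The promoters of 3 members are printed whole, for the most abundant member (Hspa5), the member that varied most between mice (Derl3) and the member with elements of both kinds (Herpud1). Capitals mark the matches above, written on the gene's own strand, so that a match on the opposite strand appears as its reverse complement. They lie at chr2:34771840-34772089 (plus strand), chr10:75893148-75893397 (plus strand) and chr8:94386179-94386428 (plus strand) in GRCm38.p6. Gene spans given further on come from the authors' annotation, which starts Hspa5 upstream of its RefSeq start, so the end of the Hspa5 window and its match lie within that span.
Hspa5: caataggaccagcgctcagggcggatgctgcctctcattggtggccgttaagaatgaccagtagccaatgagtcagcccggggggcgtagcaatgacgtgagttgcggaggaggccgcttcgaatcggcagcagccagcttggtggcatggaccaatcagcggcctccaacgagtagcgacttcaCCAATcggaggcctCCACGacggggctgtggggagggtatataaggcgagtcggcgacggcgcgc
Derl3: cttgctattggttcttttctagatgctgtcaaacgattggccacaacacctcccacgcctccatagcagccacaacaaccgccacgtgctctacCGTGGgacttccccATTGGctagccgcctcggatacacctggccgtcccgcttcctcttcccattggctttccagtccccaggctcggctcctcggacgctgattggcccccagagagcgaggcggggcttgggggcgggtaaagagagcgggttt
Herpud1: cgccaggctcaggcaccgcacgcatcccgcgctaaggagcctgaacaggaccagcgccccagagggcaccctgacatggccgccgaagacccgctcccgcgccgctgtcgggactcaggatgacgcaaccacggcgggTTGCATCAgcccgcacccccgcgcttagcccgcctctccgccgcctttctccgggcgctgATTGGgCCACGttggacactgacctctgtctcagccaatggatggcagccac

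Hspa5, which encodes BiP, the HSP70 chaperone of the ER lumen (ENSMUSG00000026864, chromosome 2, 34771970 to 34777547), was the most abundant. In females its level ran from 1580 CPM in the lowest mouse through a median of 2350 to 5410 in the highest, and in males from 1530 through 2430 to 4540. Derl3, a derlin of the ERAD channel (ENSMUSG00000009092, chromosome 10, 75893398 to 75895941), was the lowest, at 1.37, 6.02 and 42.9 CPM in females (lowest, median, highest) and 2.26, 12 and 127.1 CPM in males. The smallest count of Derl3 in any library was 53 and that of any other member was larger, so no member was near the limit of detection.

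Per kilobase of exon, which allows levels to be compared between genes, the medians over all mice were 569.7 CPM per kb for Hspa5, 409.7 for Hsp90b1 (the ER HSP90, GRP94), 352.1 for the disulfide isomerase gene P4hb and 344.4 for Pdia3, the isomerase that works with calnexin and calreticulin. Calr stood at 258.7, Dnajb9, a J-domain partner of BiP, at 201.7, and Canx at 155.7 CPM per kb. The stress sensors were lower, with Atf6 at 31.4, Ern1 at 26.4 and Eif2ak3 at 17.2, and the ERAD genes ranged from 93.2 (Herpud1) to 4.13 (Derl3). Neighbours in this order overlapped widely between mice, as Calr (177.6 to 426.5 CPM per kb over all mice), Dnajb9 (90.3 to 395.5) and Canx (103.5 to 228.1) did. The oxidase Ero1l stood at 39.2 CPM per kb and the translocon subunit Sec61b at 52.9. Counts of Hsp90b1 and Eif2ak3 were fractional in every library, and those of Derl2, Manf, Dnajb9 and Sec61b were whole in only 8.47%, 17.7%, 20.1% and 20.4% of libraries, which makes their levels uncertain where reads are shared with other loci.

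**Figure D1:**
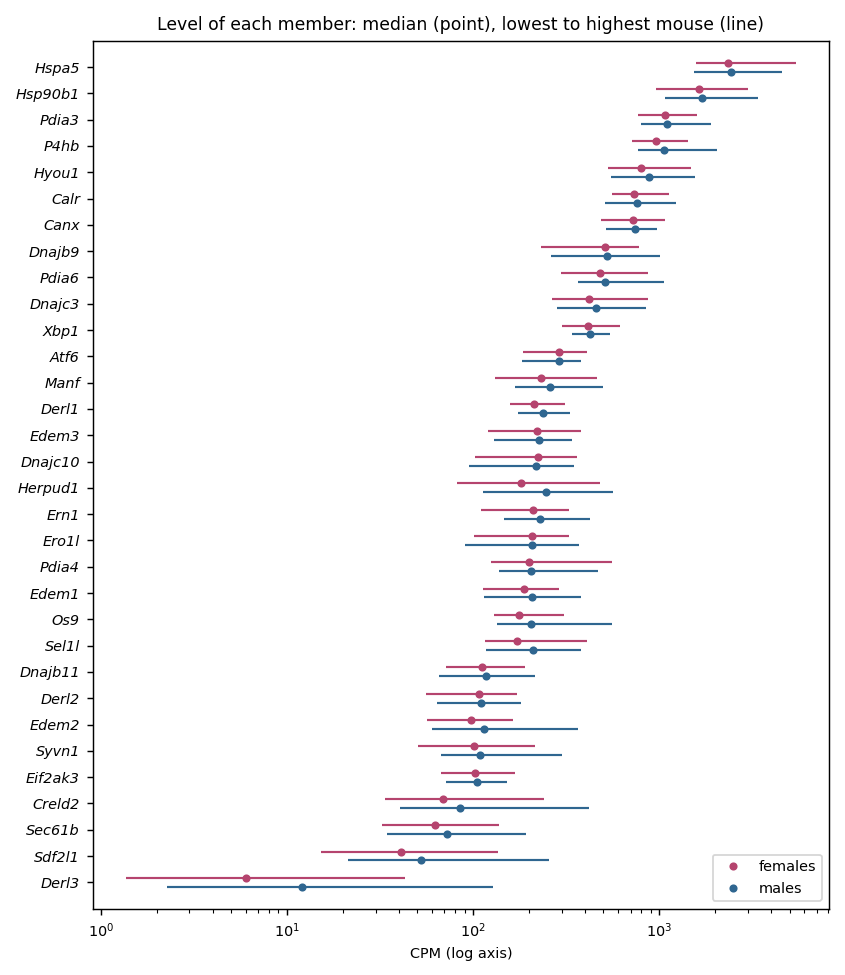
Level of each of the 32 genes in CPM (log axis), with the median of the females and of the males as points and the lowest to highest mouse as lines. Hspa5 is at the top with medians of 2350 and 2430 CPM, and Derl3 at the bottom spans 1.37 to 127.1 CPM over all mice.

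The members differed widely in how much they varied from mouse to mouse. The spread is given as the SD of log2 CPM after removal of sex and band. Derl3 varied most, with an SD of 0.953, above 93.9% of the 14332 genes of mean CPM 1 or more. In CPM over all mice, with sex and band left in, its highest level was 92.6 times its lowest. By SD, Creld2, a disulfide isomerase-like protein induced by ER stress, followed at 0.498. Sdf2l1, a BiP-associated protein, stood at 0.497 and Herpud1, an ERAD scaffold of the ER membrane, at 0.47. Sdf2l1 ran from 15.2 through 41.1 to 135.9 CPM in females and from 21.4 through 52.5 to 256.4 CPM in males. Creld2 ran from 33.6 through 68.6 to 240.2 CPM in females and from 40.4 through 84.9 to 419.9 CPM in males. For both genes the ranges of the sexes overlapped, and the highest mice were males. Differences between the bands are left in these CPM ranges.

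At the other end, Xbp1 had an SD of 0.117, at percentile 1.6 of the same genes, Canx 0.126 and Atf6 0.166. Xbp1 stayed between 301.5 and 612 CPM in every mouse. Total Xbp1 counts do not separate the spliced from the unspliced transcript, and splicing of this RNA by IRE1 is what makes the active factor. The median SD over members was 0.244, against 0.283 for all genes of mean CPM 1 or more and 0.201 for the 4072 genes of mean CPM 50 or more, and 9 members lay above the first of these medians. The HSP70 chaperone Hspa5 (0.28), the isomerases Pdia6 (0.274) and Pdia4 (0.33), the mannosidase-like Edem2 (0.362) and Sec61b (0.385) lay between the extremes.

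Spread was wider in males for 4 members and wider in females for 0, where 4.91% of genes tested were called wider in males and 0.0907% wider in females (limma on absolute deviations, adjusted over all genes tested). The SD was 0.178 in females and 0.29 in males for Os9, the lectin that hands misfolded glycoproteins to the ERAD ligase (adjusted p = 0.000704). It was 0.163 and 0.246 for P4hb (adjusted p = 0.0106), 0.822 and 1.07 for Derl3 (0.0177) and 0.163 and 0.206 for Pdia3 (0.0489), in the same test. In bands 1 to 3 alone 1 member was called, where 1.21% of genes were called wider in males.

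With sex and band removed, most members rose and fell together across all mice. The median Pearson r over the 496 pairs of members was 0.343, against -0.002 over all pairs of the 14332 genes, and 31.5% of member pairs exceeded 0.5, against 0.535% of all pairs. Of the 14332 genes 4072 had a mean CPM of 50 or more, and the pairs compared were not matched for level. These correlations are descriptions: all members were read in the same libraries, and no test was run on the set. Average linkage at r of 0.5 gave 1 large subgroup of 18 members, 2 pairs and 10 members on their own.

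The large subgroup held 7 chaperones and partners (Hspa5, Hsp90b1, Hyou1, Dnajb11, Dnajc3, Sdf2l1, Manf), 5 genes of disulfide chemistry (P4hb, Pdia3, Pdia4, Pdia6, Creld2), the lectin Calr and 5 ERAD genes (Herpud1, Sel1l, Os9, Derl1, Derl3). Its median pairwise r was 0.649. The closest pair was Sdf2l1 with Creld2 (r = 0.873, rho = 0.874, permutation p = 1e-05, the smallest that 100000 resamples can give). It was picked as the highest r of the 496 pairs, so this uncorrected p is no test of it. Leaving out the 2 mice farthest from the median of Sdf2l1 gave r = 0.868, and within the 8 combinations of sex and band r ran from 0.796 to 0.923. Hsp90b1 with Pdia3 (r = 0.862) and Hspa5 with Pdia4 (r = 0.845) were next. Some members of the subgroup were far from each other, such as Hspa5 and Os9 (r = 0.268, 0.031 to 0.492 in the 8 combinations), while Os9 was close to P4hb (r = 0.823) and Derl3 (r = 0.803). Herpud1 and Sel1l, which encodes the partner of the ERAD ligase Hrd1, had r = 0.731.

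Outside the large subgroup, Xbp1 paired with Dnajb9 (r = 0.57) and Edem3, another mannosidase-like ERAD gene, with Atf6 (r = 0.534). The 10 members on their own were Ern1, Eif2ak3, Ero1l, Dnajc10, Canx, Sec61b, Edem1, Edem2, Derl2 and Syvn1. Syvn1, the Hrd1 ligase itself, had a median r of 0.496 with the 18 and r = 0.77 with Hyou1, the ER nucleotide exchange factor and HSP70 relative. None of the 3 sensors nor Xbp1 was in the large subgroup: their median r with its members was 0.02 for Atf6, 0.057 for Ern1, 0.206 for Xbp1 and 0.305 for Eif2ak3. Ern1 fell as Hspa5 rose (r = -0.244, rho = -0.193, permutation p = 1e-05 for r and 0.00018 for rho, not corrected over the 496 pairs). Its r with Hspa5 lay between -0.385 and -0.034 in the 8 combinations, and Ern1 was positive with Os9 (r = 0.403). The most negative pair was Dnajc10, the reductase and J-domain protein ERdj5, with Ern1 (r = -0.307, -0.532 to 0.064 in the 8 combinations).

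**Figure D2:**
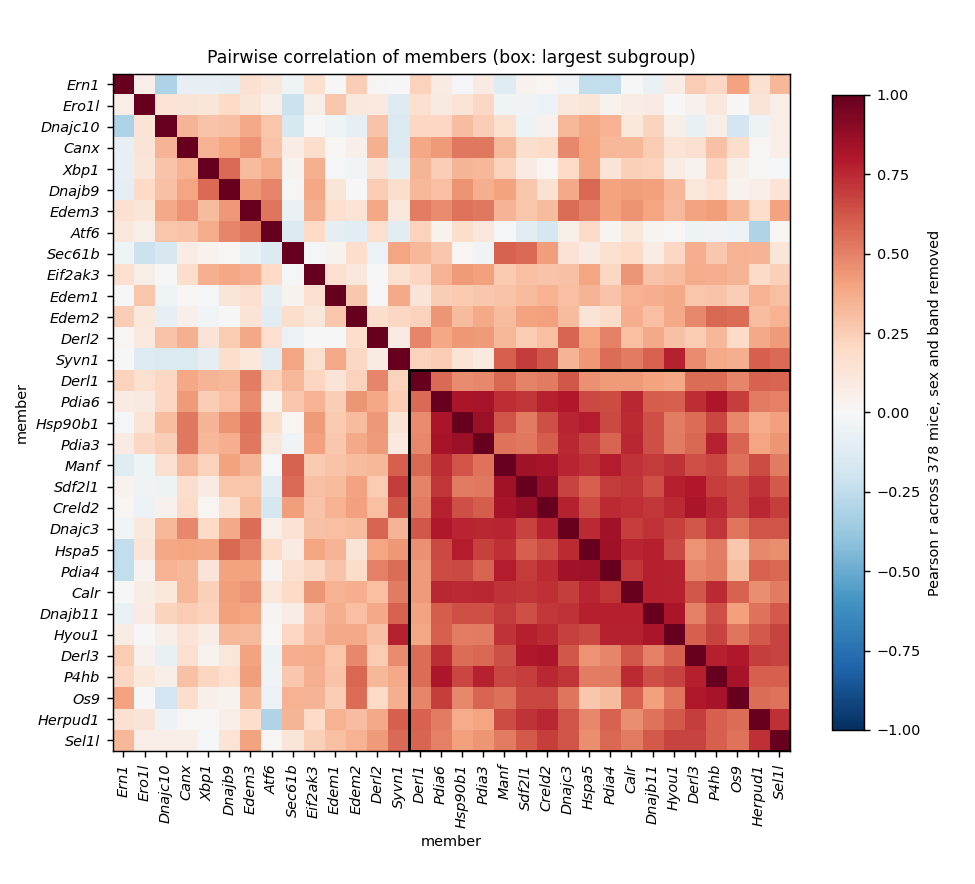
Pearson r between each pair of the 32 genes across all mice, from log2 CPM with sex and band removed (red positive, blue negative; genes on both axes in clustering order). The box holds the 18 genes of the largest subgroup, whose median r is 0.649, and the stress sensors and Xbp1 lie outside it.

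The large subgroup had 15 to 19 genes under the other settings tried, and 15 to 18 of them were among the 18. Derl1 was outside it on the deposited values, from which sex but not band was removed, and with Spearman rho. Derl1 was also outside with scores of 6 cell types removed as well, and in band 3 or band 4 alone. Removing those scores also left out Herpud1 and Sel1l. Syvn1 came in when the GC slope of each library was removed, with or without its length slope, and in band 2, 3 or 4 alone, Edem3 in band 1 and Sec61b in band 4. A library's GC or length slope is the trend of its deviations across genes with transcript GC content or length.

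Of the 18, 15 had a promoter entry, and 7 of these held an ERSE (Hspa5, Hsp90b1, Pdia6, Creld2, Dnajc3, Calr and Derl3). Canx and Syvn1 held one and lay outside. The median pairwise r was 0.623 among the 9 members with an ERSE and 0.256 among the 19 with an entry and no ERSE. The difference between these medians was not tested, nor was a link between the element and the correlation. Pdia3, Pdia4, P4hb, Os9, Sdf2l1, Sel1l and Dnajb11 were in the subgroup with no match in the window, and Herpud1 was in it with an ERSE-II and no ERSE.

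Ranked over 11107 genes of mean CPM 5 or more, the genes most like Hspa5 across all mice were Pdia4 (r = 0.845), Hsp90b1 (0.788), Dnajb11 (0.776), Calr (0.765), Dnajc3 (0.749) and Manf (0.728). Of the 20 most alike genes 10 were members, and of the 50 most alike 12. Among the most alike genes that are not members were Ppib (0.692), Bfar (0.691), Mcfd2 (0.657), Selk (0.648), Vimp (0.643), Rpn1 (0.638), Serp1 (0.637), Copb2 (0.629) and Tfg (0.628). Members low in this ranking were Edem2 (0.132), Ero1l (0.118), Sec61b (0.081) and Ern1 (-0.244).

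Insulin RNA, the summed CPM of Ins1 and Ins2, made up 6.7% to 26.1% of all counts, with a median of 11.2% in females and 13.5% in males. With sex and band as terms, 25 of the 32 members rose with insulin RNA, 2 fell and 5 did not pass the test (edgeR's quasi-likelihood test, adjusted p under 0.05). Of all genes tested, 59.2% passed, with 32.5% rising and 26.8% falling. The median slope was 0.19 log2 units per doubling of insulin RNA over members and 0.01 over all genes. By role, 8 of 10 ERAD genes, 7 of 9 chaperones and partners and 5 of 6 disulfide genes rose.

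Derl3 rose most steeply, by 2.02 ± 0.124 log2 units (SE, all mice) per doubling of insulin RNA, which is 4.06-fold (adjusted p = 6.51e-43). Next came Sdf2l1 at 0.94 ± 0.0671, Creld2 at 0.83 ± 0.0732, Sec61b at 0.73 ± 0.0513 and Herpud1 at 0.71 ± 0.07. Os9 rose by 0.49 ± 0.0321, Pdia6 by 0.46 ± 0.0401, Edem2 by 0.44 ± 0.0562, Manf, a small BiP-binding protein of the ER lumen, by 0.41 ± 0.0402 and P4hb by 0.34 ± 0.0305. Hspa5 rose by 0.14 ± 0.048 (adjusted p = 0.01), Hsp90b1 by 0.20 ± 0.0401 and Calr by 0.18 ± 0.0295.

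Lower slopes still were those of Dnajb11 (0.13 ± 0.0408), Edem1 (0.13 ± 0.0402), Eif2ak3 (0.13 ± 0.0365) and Xbp1 (0.05 ± 0.0198). Xbp1 lost its call when insulin was left out of the library sizes (0.04, adjusted p = 0.0522), and it was called in 9 of the 17 alternatives, with adjusted p from 3.97e-05 to 0.864. Hspa5 was called in 10 of the 17 (3.36e-06 to 0.985). The members that did not pass were Dnajb9 (0.04), Edem3 (0.04), Ero1l (0.06), Canx (0.03) and Derl2 (0.04). Those that fell were Dnajc10 (-0.17 ± 0.0402, adjusted p = 7.22e-05) and Atf6 (-0.06 ± 0.0279, adjusted p = 0.0394). With each library's GC slope as a term neither fall was called (-0.06, adjusted p = 0.141, and -0.02, 0.495). With the GC and length slopes Dnajc10 was called again (-0.17, adjusted p = 0.000304), and Atf6 stood at 0.07 (0.0688). Dnajc10 was called in 13 of the 17 alternatives and Atf6 in 6, each time falling. Over the 17 alternatives adjusted p ran from 8.22e-11 to 0.379 for Dnajc10 and from 0.000617 to 0.662 for Atf6.

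Across all mice, with sex and band removed, insulin RNA correlated with Derl3 at r = 0.63 (rho = 0.606), Os9 at 0.607 (0.594), Sdf2l1 at 0.591 (0.564) and Sec61b at 0.584 (0.557), each with permutation p = 1e-05. Within the 8 combinations of sex and band r ran from 0.365 to 0.811 for Derl3 and from 0.443 to 0.734 for Os9. For Hspa5 r was 0.125 (rho = 0.129, permutation p = 0.0156 for r), positive in 7 of 8 combinations, from -0.196 to 0.639. Dnajc10 had r = -0.243 (rho = -0.238, permutation p = 2e-05). Leaving out the 2 mice farthest from the median of insulin RNA gave 0.618, 0.593, 0.579, 0.587, 0.122 and -0.238 in this order. In all, 32 members were correlated with insulin RNA, and the adjusted p-values of the slopes are those corrected over all genes.

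**Figure D3:**
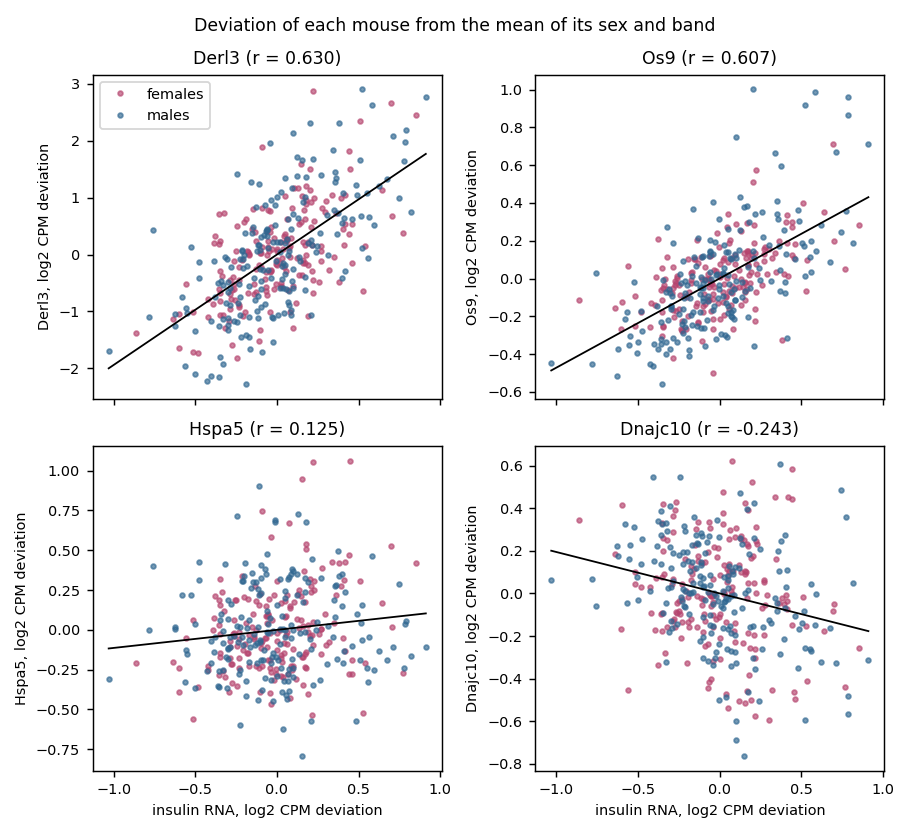
Deviation of each mouse from the mean of its sex and band, for insulin RNA (horizontal axis, log2 CPM) and for Derl3, Os9, Hspa5 and Dnajc10 (vertical axes, log2 CPM), with females and males in different colours and a fitted line. The cloud rises for Derl3 (r = 0.63) and Os9 (r = 0.607), is nearly flat for Hspa5 (r = 0.125) and falls for Dnajc10 (r = -0.243).

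For 7 pairs of members chosen because their slopes differed, the log2 ratio is given as a description, with no test. Per doubling of insulin RNA the ratio of Derl3 to Hspa5 rose by 1.83, that of Sdf2l1 to Hspa5 by 0.84, Sec61b to Hspa5 by 0.61, Os9 to Hspa5 by 0.36, P4hb to Hspa5 by 0.21 and Pdia6 to Pdia4 by 0.30, and that of Dnajc10 to Hspa5 fell by 0.31. The sign was the same in all 8 combinations of sex and band for Derl3, Sdf2l1, Sec61b and Dnajc10, in 7 for Os9 and for Pdia6 to Pdia4, and in 6 for P4hb.

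The counts differed between the insulin genes, although Ins1 and Ins2 correlated with each other at r = 0.746. With Ins1 alone 20 members rose and 3 fell, where 31.2% of all genes rose and 28.4% fell. With Ins2 alone 26 rose and 1 fell, where 32.1% and 25.5% did. Hspa5 stood at -0.03 per doubling of Ins1 (adjusted p = 0.585), and Canx was called lower with Ins1 (-0.05, adjusted p = 0.00439). Derl3 correlated with Ins1 at r = 0.561 and with Ins2 at r = 0.612, and Hspa5 at r = -0.024 and 0.177.

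Other measures moved with insulin RNA across the same mice. Insulin RNA had r = -0.551 with the length slope of the library, 0.332 with its GC slope and 0.377 with the endothelial score. It had r = 0.366 with the mean of the PERK-ATF4-CHOP genes, -0.386 with the alpha cell score and 0.009 with the acinar score. With the mean of the other beta cell markers insulin RNA had r = 0.307, whereas the mean of the members had r = -0.211 with those markers. By member, that r ran from -0.379 for Pdia3 through -0.311 for Hspa5 to 0.443 for Sec61b. The lymphocyte score, Cd79a alone, had r = -0.299 with insulin RNA and -0.397 with the mean of the members. Sec61b, which has a short transcript, had r = -0.694 with the length slope, and its slope on insulin RNA was 0.25 (adjusted p = 1.5e-06) with GC and length slopes as terms in place of 0.73. Derl3 stood at 2.14 and Os9 at 0.55 in that fit, and 28 members rose and 1 fell, where 28.4% and 25.6% of all genes did. With scores of 6 cell types as terms 17 members rose and 1 fell, where 28.1% and 23.9% of all genes did. Hspa5 (0.03, adjusted p = 0.641) was no longer called, while Derl3 (1.49) and Sdf2l1 (0.80) were.

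**Figure D4:**
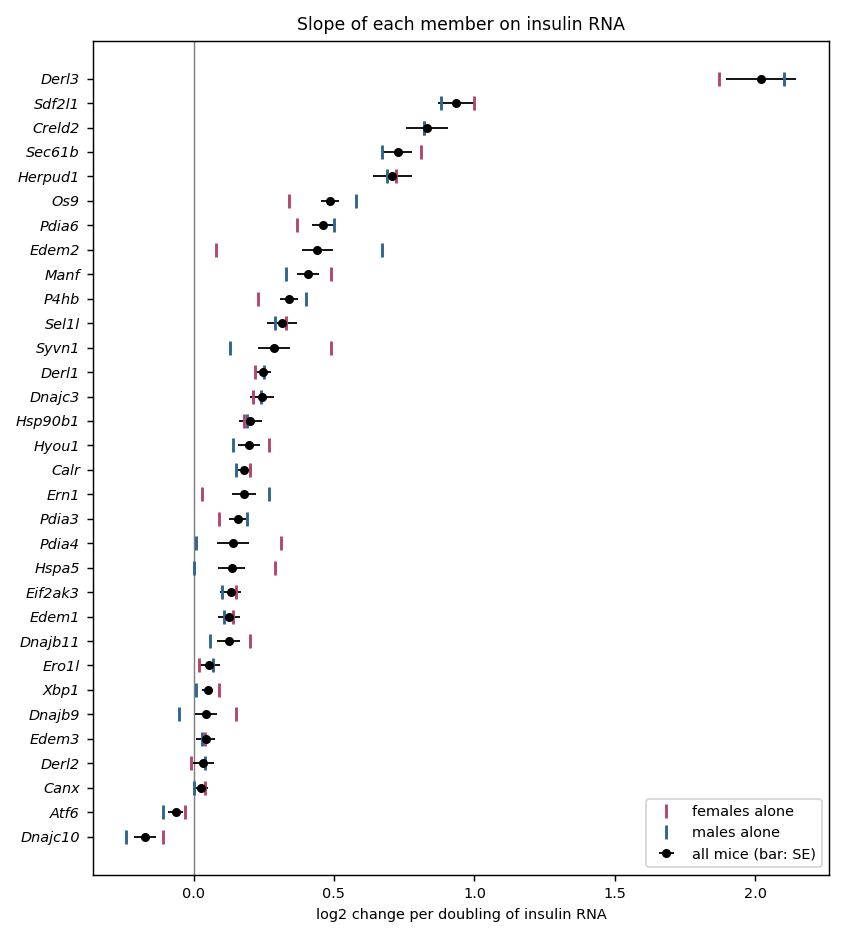
Slope of each of the 32 genes on insulin RNA, in log2 units per doubling, with sex and band as terms (black points, bars are SE) and in females or males alone (coloured ticks). Derl3 stands at 2.02, Hspa5 at 0.14 and Dnajc10 at -0.17, and for Edem2 the ticks lie apart at 0.08 in females and 0.67 in males.

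The slope on insulin RNA differed between the sexes for 3 of the 32 members, where 14% of all genes did, 6.82% steeper in females and 7.19% steeper in males (edgeR's quasi-likelihood test of the interaction). In that fit the slope in females minus that in males was -0.44 ± 0.0949 for Edem2 (adjusted p = 0.000323), -0.18 ± 0.0549 for Os9 (0.016) and 0.35 ± 0.0964 for Syvn1 (0.00702), and 0.11 ± 0.0825 for Hspa5, which did not pass (0.409). Separate fits of each sex gave other differences. Edem2 stood at 0.08 in females (not called, adjusted p = 0.442) and 0.67 in males, Os9 at 0.34 and 0.58, Syvn1 at 0.49 and 0.13 (not called in males, adjusted p = 0.136) and Hspa5 at 0.29 and 0. The slope differed between bands for 8 members, where 13.6% of all genes did. Band 3 gave the lowest slope for Hsp90b1, Pdia3, Pdia6, Dnajc3, Canx and Derl2, and band 4 for Syvn1 and Sec61b. In band 3 alone 14 members rose, where 20% of all genes did.

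Female islets had less RNA of most members. Of the 32, 24 were lower in females than in males and 0 were higher, where 28.8% of all genes were lower and 21.7% higher, 50.6% in all (edgeR's quasi-likelihood test, sex and band as terms, adjusted p under 0.05). The median log2 difference was -0.12 over members and -0.01 over all genes. Among the ERAD genes 9 of 10 were lower, among the chaperones and partners 6 of 9, among the disulfide genes 4 of 6, and both calnexin cycle lectins, Xbp1 and Sec61b were lower as well. Of the sensors Ern1 was lower and Atf6 and Eif2ak3 did not pass. The call of Calr (adjusted p = 0.0372) was lost with RLE scaling (0.0642), limma-voom (0.0536), DESeq2 (0.0625), the deposited values (0.0917) and no band term (0.0839), and Calr passed in none of the 4 bands taken alone. Without band 4, Calr, Canx, Xbp1, Hsp90b1, Pdia3 and Pdia6 were no longer called, with adjusted p from 0.0721 (Pdia3) to 0.835 (Canx).

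The mean level of Derl3 was 7.67 ± 5.8 CPM (SD) among females against 17.2 ± 17.3 CPM among males, a log2 difference of -1.14 ± 0.104 (SE), 2.2-fold lower in females (adjusted p = 6.94e-22). A female had less than a male in 74.2% of all pairs of mice. Herpud1 ran from 81.9 through 180.8 to 481.7 CPM in females and from 112.4 to 561.3 CPM in males, whose median was 1.36 times as high. It was lower in females by 1.35-fold (log2 -0.43 ± 0.0489, adjusted p = 1.68e-15). Creld2 stood at -0.38 ± 0.0545, Sdf2l1 at -0.32 ± 0.0518, Edem2 at -0.27 ± 0.0381, Sel1l at -0.25 ± 0.0346 and Os9 at -0.22 ± 0.0257. The sexes overlapped widely for each of these genes.

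Smaller differences were those of Ern1 (-0.19), P4hb (-0.18), Derl1, another derlin (-0.16), Dnajc3, the J-domain protein p58IPK (-0.16), Manf (-0.15), Hyou1 (-0.14), Syvn1 (-0.14), Sec61b (-0.13), Pdia6 (-0.12), Edem1 (-0.12), Derl2 (-0.11), Dnajb11 (-0.10), Hsp90b1 (-0.09), Pdia3 (-0.07), Calr (-0.05), Canx (-0.04) and Xbp1 (-0.04). The 8 members that did not pass were Hspa5 (-0.04, adjusted p = 0.26), Dnajb9, Pdia4, Edem3, Dnajc10, Ero1l, Atf6 and Eif2ak3. The mean level of Hspa5 was 2490 ± 584.1 CPM (SD) among females against 2560 ± 540.8 CPM among males.

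Derl3, Herpud1, Creld2, Sdf2l1, Edem2, Os9, P4hb and Derl1 were lower in females in each of the 4 bands and passed the test in each. In bands 1 to 4 taken alone 10, 13, 12 and 22 members were called lower, where 10.4%, 14.4%, 8% and 14.9% of all genes were. For Derl3 the log2 differences in bands 1 to 4 were -1.24, -1.20, -0.84 and -1.30. Hspa5, Pdia4, Hsp90b1, Pdia3, Pdia6, Dnajc3, Canx, Derl2, Dnajb11, Sec61b and Xbp1 passed in band 4 and in no other band. Hspa5 was lower in females there (log2 -0.16, adjusted p = 0.00867) and Pdia4 stood at -0.18 (0.0216), although neither passed over all bands. Hsp90b1 stood at -0.23 in band 4, against -0.08, -0.03 and 0 in bands 1 to 3. The interaction of sex and band was called for 0 members (1.09% of all genes); at an unadjusted p under 0.05 it was 0.00376 for Canx, 0.00779 for Hsp90b1, 0.0119 for Dnajc3, 0.022 for Derl2 and 0.027 for Pdia6, and limma on the deposited values also called 0.

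Insulin RNA was itself lower in females, with Ins1 at -0.40 ± 0.041 and Ins2 at -0.33 ± 0.0323. With insulin RNA as a further term, 11 members were lower in females and 1 was higher, where 16.5% of all genes were lower and 14.7% higher. Derl3 then stood at -0.38 ± 0.0902 (adjusted p = 0.000277), Herpud1 at -0.19 ± 0.0491, Sel1l at -0.14 ± 0.0376 and Ern1 at -0.13 ± 0.0306, all lower. Sdf2l1 stood at 0 ± 0.0474 and Os9 at -0.04 ± 0.0231, neither called, and Sec61b was higher at 0.12 ± 0.0366 (adjusted p = 0.00908). Markers of other cell types also differed by sex, where 28.8% of all genes were lower in females and 21.7% higher. Endothelial markers were lower in females in 10 of 10 (summed CPM 376.5 to 713.9 in females and 410.5 to 1270 in males). Alpha cell markers were higher in 7 of 7 (6300 to 71600 and 2120 to 44300) and delta and PP cell markers in 5 of 5. Of the 8 beta cell markers, Ins1 and Ins2 among them, 6 were lower in females and 0 higher (81100 to 235000 and 80400 to 338000). With scores of 6 other cell types as terms (exocrine acinar and duct, stellate, endothelial, and the immune pair of macrophage and lymphocyte) 15 members were lower and 0 higher, where 17.5% of all genes were lower and 13.4% higher. Alpha, beta and delta cell scores were not among these terms, and their part in the difference was not tested.

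**Figure D5:**
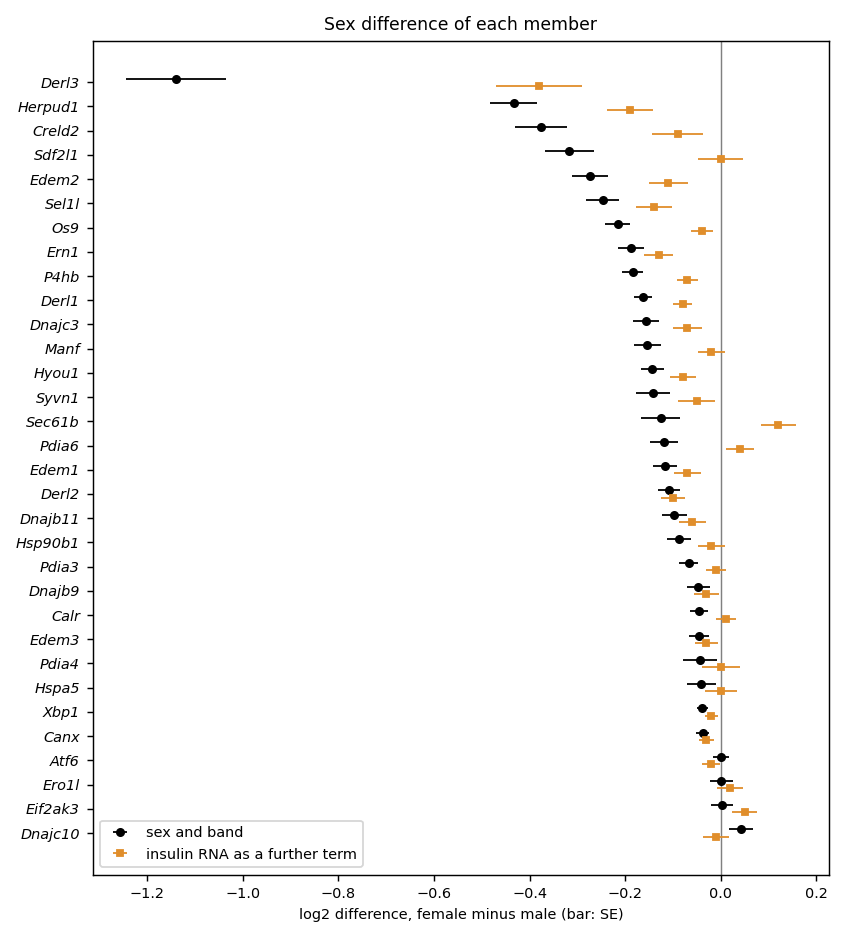
Log2 difference between females and males (female minus male) of each of the 32 genes, with sex and band as terms (black circles) and with insulin RNA as a further term (orange squares); bars are SE. Derl3 moves from -1.14 to -0.38, Sdf2l1 from -0.32 to 0 and Sec61b from -0.13 to 0.12.

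Neighbouring parts of the same machinery were read from lists of related genes. The counts below stand beside these shares of all genes tested: 28.8% were lower and 21.7% higher in females. With insulin RNA, 32.5% of all genes rose and 26.8% fell. In the PERK-ATF4-CHOP arm, the branch that raises amino acid and stress genes, 18 of 20 genes were lower in females and 0 higher, among them Trib3 (-0.73) and Chac1 (-0.64), and 17 rose and 1 fell with insulin RNA, among them Eif4ebp1 (0.70) and Ddit3 (0.54). Of 17 genes of the translocon, signal peptidase and TRAP complex 12 were lower in females and 1 higher, and 12 rose and 2 fell with insulin RNA, with Ssr4 at 0.79. Of 15 oligosaccharyltransferase and glucosidase genes 14 were lower in females and 0 higher, among them the folding sensor gene Uggt1 (-0.17), and 12 rose with insulin RNA and 0 fell. Of 19 further folding enzymes tested 13 were lower and 1 higher, among them the prolyl isomerase gene Fkbp11 (-0.65), and with insulin RNA 13 rose and 4 fell, with Fkbp11 at 1.33. Of 20 further ERAD components 11 were lower and 1 higher, and 11 rose and 1 fell with insulin RNA. Of 12 cytosolic heat shock genes 4 were lower and 1 higher, and 7 rose and 2 fell with insulin RNA, among them Hspa1a (1.48), whose reads can be shared with its near-identical copy Hspa1b. The medians of the sex difference ran from -0.28 (PERK-ATF4-CHOP arm) to -0.01 (cytosolic heat shock genes), against -0.01 over all genes.

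The members also differed in how they followed the PERK-ATF4-CHOP genes across mice. The r with the mean of those genes was 0.622 for Herpud1, 0.56 for Derl1, 0.483 for Sel1l, 0.419 for Ern1 and 0.402 for Derl3. It was 0.095 for Hspa5, 0.067 for Pdia4, 0.077 for Calr and 0.077 for Syvn1. The lowest values were those of Atf6 (-0.157), Dnajc10 (-0.032), Canx (-0.012) and Dnajb9 (-0.001). These are descriptions over all mice with sex and band removed.

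Acinar cells are rich in ER chaperones, so the members were also set against acinar RNA. Of the 32, 4 fell with the acinar score and 0 rose, where 7.15% of all genes fell and 6.76% rose. The falls were slight, at -0.05 ± 0.00832 log2 units per log2 unit of acinar RNA for Ern1 (adjusted p = 1.82e-06) and -0.02 for Derl1, Derl2 and Atf6. Hspa5 stood at 0.01 ± 0.00947 (adjusted p = 0.529) and Xbp1 at 0 ± 0.00391.

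Levels of 30 of the 32 members differed between the number bands, where 87.9% of all genes did, and Pdia6 and Sel1l did not pass. Sdf2l1 had medians of 37.5, 38.6, 39.7 and 87.1 CPM in bands 1 to 4, Sec61b 57.3, 59.9, 60 and 112.4 CPM, and Derl3 6.67, 6.76, 6.74 and 14 CPM. Dnajb9 fell from 613.7 to 364.1 CPM and Ero1l from 213.1 to 139.7 CPM between bands 1 and 4. Between these bands 13 members were higher and 19 lower. Across the 32 members the shift had Pearson r of 0.897 and Spearman rho of 0.917 with the GC content of the transcript, from 40.6% in Dnajb9 to 57.3% in Derl3. This is a correlation across genes, which are not independent replicates.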

How the data were processed

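The deposited tables held estimated counts per gene and log2-like values after a variance-stabilising step, both made by the authors, for 378 mice (190 males and 188 females). Start and end positions (other values, in megabases) came from the authors' deposited annotation and are the gene spans printed; promoter windows use RefSeq starts. No aligner or counting tool is identified in the sources used here. The submitters' processing notes name GRCm38 and DESeq2 without a role. Of the estimated counts, 67.7% were whole; all were rounded. The deposited log2 values served as an alternative. Between number bands, limma on these values gave an unadjusted p under 0.05 for 0 of 16927 genes. They therefore cannot show whether levels differ between bands, and the sources used here do not state why.

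Genes were filtered by filterByExpr and scaled by TMM, and tested with edgeR 4.0.16 (quasi-likelihood, R 4.3.3) with sex and number band as terms. P-values were adjusted by Benjamini-Hochberg over all genes tested at 0.05, and the SE is the log2 value divided by the root of F. Spread was tested with limma 3.58.1 on absolute deviations from the median of each sex and band. Residual correlations used log2 CPM with a prior count of 2, and 100000 permutations within sex and band (NumPy 2.4.6, SciPy 1.17.1). Exon length and GC came from GENCODE M21 and promoters from RefSeq. DESeq2 1.42.0, limma-voom and other terms, filters and subsets were alternatives. Each mouse is 1 sample; depth ranged from 15.1 to 68.8 M counts.

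The members and gene lists were chosen with earlier results of these data known. The text names every member and, of other genes, Ins1, Ins2, at most 4 of each list by the smallest adjusted p and those among the 10 most like Hspa5, of which 1 is not reported here. Counts were also simulated, with 50 genes changed per size and every gene drawn independently of the others. The sex test called 76% of the genes given a 1.1-fold change and 96% of those given 1.25-fold, with 6 false calls. The insulin test recovered 32% at a slope of 0.1 and 70% at 0.2 with 8 false calls, each over 16927 genes. Genes in the real libraries vary together, so these numbers of false calls do not measure those in the real data.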

Additional observations from a re-analysis of the deposited data

Results flagged for a closer look

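The slope on insulin RNA differed between females and males for 3 members by the test of the interaction. Adjusted p was 0.000323 for Edem2, whose slope was lower by 0.44 ± 0.0949 in females (difference -0.44), 0.00702 for Syvn1 (0.35 ± 0.0964 higher in females) and 0.016 for Os9 (-0.18 ± 0.0549). The share of all genes called was 14%.

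The slope on insulin RNA differed between number bands for 8 members, where 13.6% of all genes did. Adjusted p was 0.0136 for Hsp90b1, with slopes of 0.28, 0.24, -0.03 and 0.27 in bands 1 to 4. It was 0.0287 for Pdia3 (0.22, 0.17, -0.04, 0.25), 0.0202 for Pdia6 (0.54, 0.52, 0.20, 0.54) and 0.00555 for Dnajc3 (0.28, 0.33, -0.04, 0.38). It was 0.0028 for Canx (0.04, 0.04, -0.10, 0.10) and 0.00658 for Derl2 (0.04, -0.06, -0.11, 0.18). For Syvn1 it was 0.00186 (0.28, 0.67, 0.37, -0.04) and for Sec61b 0.0071 (0.77, 1.11, 0.80, 0.38). Sex and band were not crossed in this test.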

How the results depend on the processing

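Under the alternatives tried (edgeR with another scaling, no filter, no band term, bands 1 to 3, limma-voom, DESeq2, the deposited values, library GC and length slopes, and leaving out 2 females), 18 to 25 members were lower in females and 0 higher. Of all genes tested, 23.2% to 30.2% were lower and 18.4% to 24.4% higher in these fits. The exceptions were fits with 6 cell type scores (15 lower, 5244 genes called in all) or 5 (without Cd79a, 15 and 5539). A further exception was the fit with insulin RNA (11 lower, 1 higher, 5287). Of all genes 17.5%, 18.7% and 16.5% were lower in these fits, in this order, and 13.4%, 14% and 14.7% higher. In bands 1 to 3 taken 1 at a time 10, 13 and 12 members were lower, with 2859, 4682 and 2622 genes called. Band 4 alone gave 4305 genes called. Of all genes 10.4%, 14.4%, 8% and 14.9% were lower in bands 1 to 4. The number of members falling with insulin RNA was 1 with GC and length slopes, with 5 or 6 cell type scores and with Ins2 alone. It was also 1 in bands 1 to 3 together and in band 1 or 3. With the GC slope, in females and in band 2 or 4 it was 0. In these fits 11.1% to 27% of all genes fell. In band 3 alone 14 members rose, where 20% of all genes did. All genes called for insulin RNA were 5812 in females and 5922, 4396, 6282 and 5074 in bands 1 to 4. In bands 1 to 3 together 1 member rose with acinar RNA, where 8.34% of all genes did, and 1 was wider in males, where 1.21% of genes were. The deposited values gave 0 band differences over members and over all genes. Unadjusted limma p was under 0.05 for 0 genes as well, so these values cannot show band differences.

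These log2 sex differences changed sign, and of them only Sec61b passed the test after the change: Atf6 without the band term (-0.0003), with the GC slope (-0.0022), with GC and length slopes (-0.0058), with limma-voom (-0.003) and without the 2 females (-0.0025, and Ero1l -0.0012); Hspa5 (0.0046) and Pdia4 (0.0094) in bands 1 to 3; Hspa5 (0.01), Pdia4 (0.0061), Calr (0.02) and Atf6 (-0.01) with 6 cell type scores; Hspa5 (0.0069), Calr (0.01) and Atf6 (-0.01) with 5. With insulin RNA they were Hspa5 (0.0022), Pdia4 (0.0018), Pdia6 (0.04), Dnajc10 (-0.01), Calr (0.01), Atf6 (-0.02) and Sec61b (0.12). Within bands they were Pdia4 (0.01), Atf6 (-0.02) and Eif2ak3 (-0.05) in band 1, Hspa5 (0.03), Dnajb9 (0.03), Pdia4 (0.04), Ero1l (-0.0056), Canx (0.0082) and Eif2ak3 (-0.02) in band 2, Xbp1 (0.0035), Edem3 (0.0002) and Ero1l (-0.0062) in band 3, and Ero1l (-0.01), Atf6 (-0.001) and Eif2ak3 (-0.02) in band 4.

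These slopes on insulin RNA changed sign, and of them only Canx with Ins1 passed the test after the change: Hspa5 (-0.03), Xbp1 (-0.02), Dnajb9 (-0.04), Pdia4 (-0.0021), Edem3 (-0.03), Canx (-0.05) and Derl2 (-0.05) with Ins1 alone; Atf6 (0.07) with GC and length slopes; Edem3 (-0.03) and Ero1l (-0.0056) with 6 cell type scores; Derl2 (-0.01) in females; Dnajb9 (-0.05) in males; Ero1l (-0.0059), Canx (-0.01) and Derl2 (-0.04) in bands 1 to 3. Within bands they were Ero1l (-0.11), Ern1 (-0.01) and Derl2 (-0.06) in band 2, Hspa5 (-0.08), Xbp1 (-0.02), Dnajb9 (-0.07), Hsp90b1 (-0.03), Pdia3 (-0.04), Pdia4 (-0.07), Edem3 (-0.07), Dnajc3 (-0.04), Canx (-0.10) and Derl2 (-0.11) in band 3 and Syvn1 (-0.04) in band 4. Slopes on acinar RNA changed sign for Dnajb9 (0.0018), Creld2 (-0.0031) and Eif2ak3 (0.0068) in bands 1 to 3 and for Manf (-0.0001) and Eif2ak3 (0.0003) on the deposited values, and the cause of these changes was not tested. No paired analysis was possible because each mouse number occurs in 1 sex only. The lymphocyte score rests on 1 gene, Cd79a. The fits with GC and length slopes, 5 scores, insulin RNA as a term for sex, single bands for insulin RNA, its interactions, and without 2 females were chosen after seeing the data.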
